A study of Bos taurus with 8 samples.

Results

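The levels of *PEG3* and 9 other imprinted genes, which were listed by name, were compared between chondrocytes of the superficial zone (SZCs) and of the deep zone (DZCs) of bovine knee cartilage. The cartilage came from wild type calves that were 1 to 2 weeks of age. Slices of each zone were pooled within a joint, the cells were freed by enzymes, and both zones were then kept for 3 days in DMEM/F12 medium with 10% FBS before RNA was sequenced. All values are thus of cultured cells and not of intact cartilage. There were 2 libraries per zone, described in the methods as duplicate biological samples, but the joints behind each are not given, and p-values measure only the spread between these libraries.

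Of the 10 names, 9 had a row among the 24596 counted genes, and all 9 were among the 12857 genes that passed the filter on low counts and were tested. Both deposited tables leave the row ENSBTAG00000023338 without a symbol, and it is called *PEG3* here because the study's own list of regulators pairs that identifier with the name. That list holds only regulators that the study called different between the zones in these same samples, with *PEG3* higher in SZCs. The row was thus named through an earlier call on these data, and its call here is not independent evidence. The other 8 were named by the count table. No row carried the name *PEG10*, and that gene was not analysed here.

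Imprinted genes are expressed mainly from the chromosome inherited from a single parent, and many of them encode regulators of growth. They lie in clusters in which the DNA methylation laid down in the germ line sets which copy is used. *PEG3*, *PEG10*, *DLK1*, *MEST*, *PLAGL1*, *NDN*, *NNAT* and *SGCE* are known as genes used from the paternal copy and *CDKN1C* as one used from the maternal copy. In the mouse, *GRB10* is used from the maternal copy in most tissues. RNA counts per gene, as here, do not show which copy the RNA came from.

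Library totals lay between 19918970 and 21890549 counts, and a count of 3, below which a level was not read, stood for between 0.129 and 0.187 CPM (counts over the library's size after TMM normalization, which corrects for differences in RNA composition). *COL2A1*, the main cartilage collagen, took 24.5% of the counts in DZC replicate 1 and between 6.31% and 12.9% in the other libraries. Genes that the study lists as higher in SZCs of these same samples (*PRG4*, *CREB5*, *VIT*, *EPHA3*, *WIF1*, *THBS4*, *GDF5* and *GDF6*) summed to between 3700 and 4874 CPM in SZCs and between 97.4 and 176 CPM in DZCs. All 8 were called by edgeR's exact test and 7 by DESeq2, which did not call *WIF1*. Since they were chosen on these samples they are not independent evidence. The 9 genes of a list of chondrocyte markers were counted in every library, with sums of 121003 and 123649 CPM in SZCs and 487094 and 188785 CPM in DZCs. All 9 had negative log2 fold changes of SZCs over DZCs (median -1.13). The matrix protein gene *MATN3* was called higher in DZCs by edgeR's exact test (FDR 0.00212), and DESeq2 also called *COL2A1* and *COL11A1*. Without SZC replicate 1 or SZC replicate 2, where 0.436% and 1.13% of all tested genes were called, none of the 9 was, and without DZC replicate 2, where 20.7% were, there were 7. The libraries of DZCs stood apart from each other. The summed level of 14 genes of dividing cells was 81.4 CPM in DZC replicate 1, 607 CPM in DZC replicate 2, and 365 and 414 CPM in the SZC libraries, and 0 of the 14 were called by edgeR's exact test, by DESeq2 or at an unadjusted p-value below 0.05. Those of the list with the highest levels were *MKI67*, at 4.54 and 129 CPM in DZC replicates 1 and 2, and *RRM2*, at 6.35 and 119 CPM. The sum over 10 genes of hypertrophic and bone cells was 38.6 CPM in DZC replicate 1, 289 CPM in DZC replicate 2, and 113 and 108 CPM in SZCs. *IHH*, a signal of prehypertrophic chondrocytes and the only one of the list called by edgeR's exact test (FDR 0.016), went the other way between the DZC libraries, at 12.1 and 2.15 CPM against 0.591 and 0.215 CPM in SZCs. It was not called without SZC replicate 1, SZC replicate 2 or DZC replicate 1. DESeq2 also called *RUNX2*. Without DZC replicate 1, edgeR's exact test called 6.67% of all tested genes and 7 of 8 tested genes of the list, as higher in DZCs (*ALPL*, *COL10A1*, *IBSP*, *MMP13*, *RUNX2*, *SP7* and *SPP1*), and without DZC replicate 2 (20.7% of all tested genes) it called *COL10A1* and *SPP1* as higher in SZCs and *IHH* as higher in DZCs.

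*DLK1*, *MEST* and *PEG3* were higher in SZCs than in DZCs, by 11.2-fold, 6.96-fold and 4.82-fold. None of the 9 genes was called as higher in DZCs. *GRB10*, *SGCE*, *NDN*, *PLAGL1* and *CDKN1C* had means within 1.3-fold of each other in the 2 zones, and *NNAT* was 2.78-fold higher in SZCs without passing the test. By edgeR's exact test with Benjamini–Hochberg adjustment over all tested genes (FDR), 3 of the 9 passed a threshold of 0.05. The same test called 2.93% of all tested genes, 2.23% as higher in SZCs and 0.7% as higher in DZCs, and the 9 genes were listed with earlier results of these data known. *PEG3* was named through a list of genes already called on these samples, so its pass was fixed beforehand and is not independent evidence. *DLK1*, *MEST* and *PEG3* were also the members with an unadjusted p-value below 0.05, which 9.09% of all tested genes had. They were called as well by DESeq2 (3.09% of all tested genes called), by edgeR's exact test on libraries scaled by their totals (2.58%) and by its quasi-likelihood test with a term for the replicate number (2.7%). Fewer cells of a type and less RNA per cell cannot be told apart in such libraries.

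**Figure D1:**
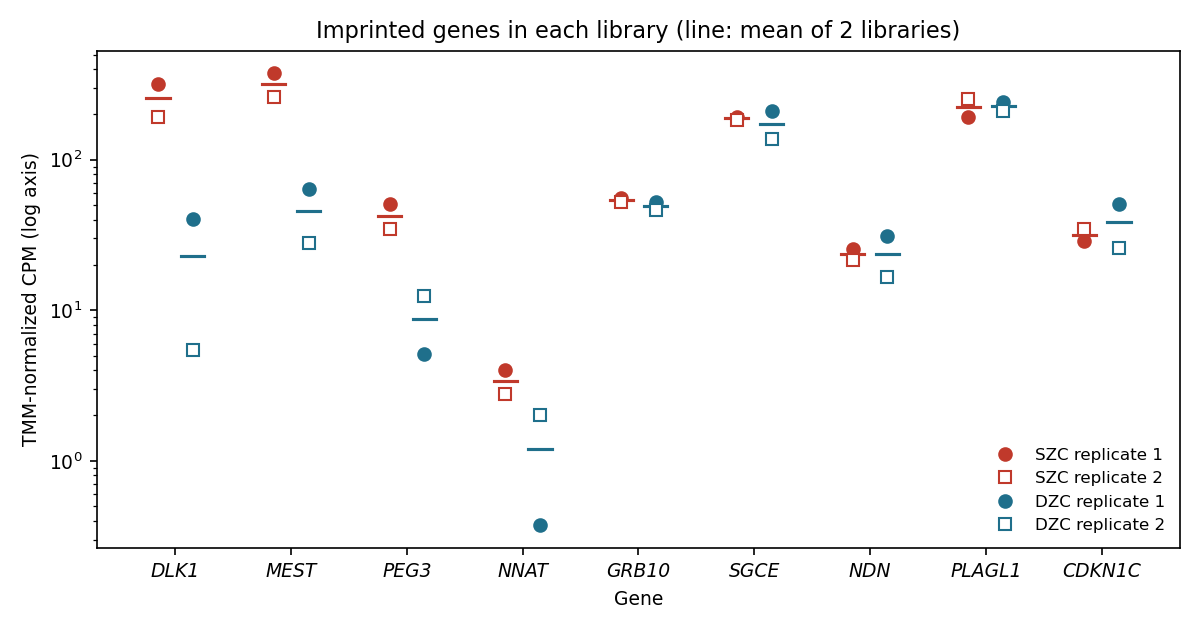
TMM-normalized CPM on a log axis for each of the 9 genes, ordered by fold change, with SZC libraries in red, DZC libraries in blue, replicate 1 filled, replicate 2 open, and a line at each mean of 2 libraries. The SZC points of *DLK1*, *MEST*, *PEG3* and *NNAT* lie above both DZC points, as for 21% of all tested genes. Those of the other 5 overlap the DZC points. Heights cannot be compared between genes, whose transcripts differ in length.

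*PEG3*, a zinc finger protein of the nucleus, had 1113 and 800 counts in the pair of SZC libraries (replicate 1 first, as for all pairs of values here) and 82 and 278 counts in the DZC pair. These counts correspond to 50.6 and 34.5 CPM in SZCs and to 5.10 and 12.5 CPM in DZCs. Both SZC libraries thus lay above both DZC libraries, as for 21% of all tested genes, and the lowest value was that of DZC replicate 1. The SZC mean was 42.5 ± 11.4 CPM (SD, n = 2) and the DZC mean 8.78 ± 5.20 CPM (SD, n = 2). That gave a log2 fold change (log2FC) of SZCs over DZCs of 2.27, with a standard error (SE) of 0.53 and an edgeR FDR of 0.00343. Over the 4 ways to set an SZC library against a DZC library, the difference in log2(CPM + 1) ran from 1.40 to 3.08. The reads were counted without regard to strand, and in the RefSeq annotation of another assembly (ARS-UCD2.0) the antisense RNA *APEG3* and the microRNA *MIR2900* overlap *PEG3*, so reads of either RNA could be counted with it.

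*DLK1* (ENSBTAG00000037899), a membrane protein related to the ligands of Notch and known as an inhibitor of fat cell formation, had the largest fold change of the 9. Its counts were 7007 and 4479 in SZCs and 649 and 121 in DZCs, which is 318 and 193 CPM against 40.4 and 5.42 CPM. DZC replicate 1 was 7.44-fold higher than DZC replicate 2, the reverse of the order seen for *PEG3*. The log2FC was 3.48 with a standard error of 0.86, the largest but one of the 9 genes, and the FDR was 0.0156 by edgeR's exact test.

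*MEST* (ENSBTAG00000017223), which encodes a protein with the fold of a hydrolase enzyme, was at 375 and 262 CPM in the SZC libraries, from 8251 and 6083 counts. In the DZC libraries it was at 63.5 and 28.1 CPM, from 1020 and 626 counts. The SZC values lay above the DZC values, as for 21% of all tested genes. DZC replicate 1 was again the higher of its pair, by 2.26-fold. The log2FC was 2.80 (SE 0.51, edgeR FDR 4.17e-05), the smallest FDR among the 9 genes. *COPG2*, which overlaps *MEST* in the RefSeq annotation, was lower in both SZC libraries, at 29.0 and 33.7 CPM in SZCs and 52.0 and 38.5 CPM in DZCs, and did not pass (edgeR FDR 0.817).

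These calls depended on the test and on single libraries. The quasi-likelihood test of edgeR called 0 of 12857 genes, with 1126 at an unadjusted p-value below 0.05, and gave an FDR of 0.257 to *PEG3*, 0.357 to *DLK1* and 0.192 to *MEST*. Without SZC replicate 1, edgeR's exact test gave an FDR of 0.472 to *PEG3* and 0.107 to *DLK1*, while *MEST* passed with 0.0386. Without DZC replicate 2, the log2FC of *DLK1* was 2.68, and without DZC replicate 1 it was 5.56. With DZC replicate 1 left out that of *PEG3* was 1.77, and with DZC replicate 2 left out it was 3.07. For *MEST* these values were 3.51 and 2.34. All log2FCs of these 3 genes stayed above 0 under the 11 alternatives.

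**Figure D2:**
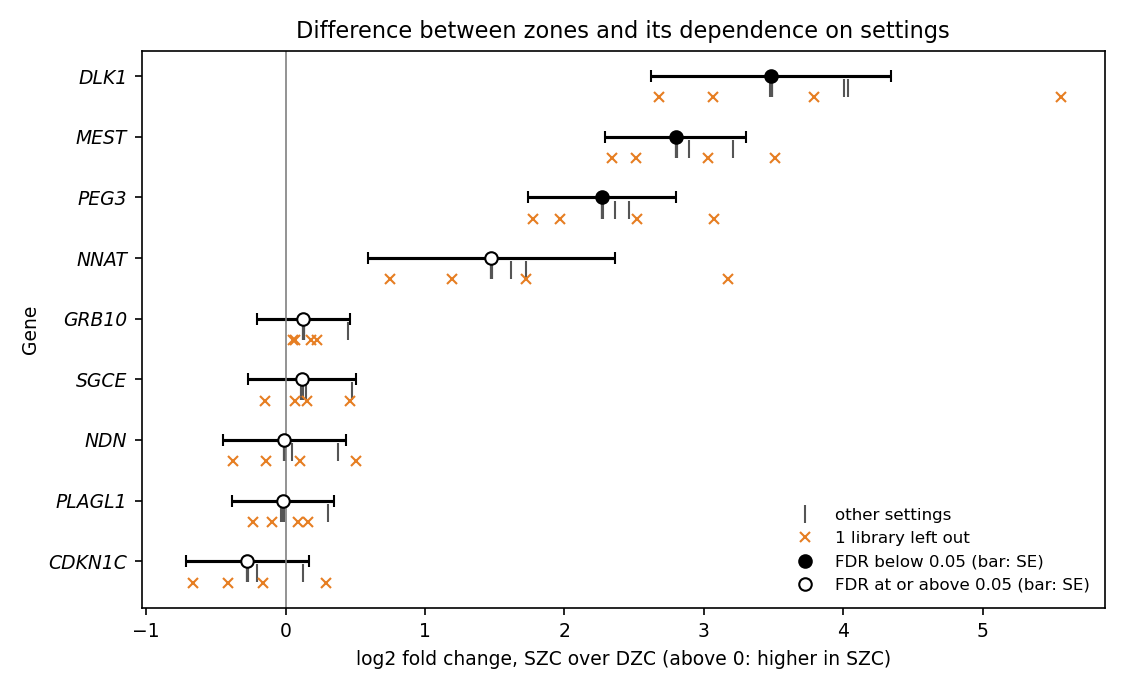
Log2 fold change of SZCs over DZCs for each gene (circle, with a bar of 1 standard error; filled where the FDR of edgeR's exact test was below 0.05), with the values from 7 other settings (grey ticks) and from leaving out each of the 4 libraries (orange crosses). All values of *DLK1*, *MEST*, *PEG3* and *NNAT* lie above 0, whereas those of *SGCE*, *NDN*, *PLAGL1* and *CDKN1C* fall on both sides of it. Those of *GRB10* also lie above 0, between 0.055 and 0.45, though its bar crosses 0.

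*NNAT* (ENSBTAG00000003212), a small membrane protein of the endoplasmic reticulum, had the fewest counts of these genes and was close to the limit in DZC replicate 1. Its counts were 88 and 64 in SZCs and 6 and 45 in DZCs, or 4.0 and 2.76 CPM against 0.373 and 2.02 CPM. The SZC values lay above the DZC values, as did those of 21% of all tested genes, but the DZC libraries differed by 5.40-fold from each other. Its log2FC of 1.48 (SE 0.88) had an FDR of 0.756 by edgeR's exact test. Without DZC replicate 2 the log2FC was 3.17 (edgeR FDR 0.00247), and without DZC replicate 1 it was 0.75. The gene *BLCAP*, which overlaps *NNAT* in the RefSeq annotation, was lower in both SZC libraries, at 40.3 and 36.9 CPM against 64.3 and 45.5 CPM in DZCs (FDR 0.837).

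The other 5 genes did not pass, and the SZC and DZC libraries of each overlapped. *GRB10*, an adaptor that binds the insulin and IGF1 receptors and restrains their signals, varied least. It was at 56.1 and 52.0 CPM in SZCs and 52.6 and 46.4 CPM in DZCs, a log2FC of 0.13 (SE 0.33, edgeR FDR 1). *SGCE*, a sarcoglycan of the complex that links dystrophin to the matrix, was at 194 and 182 CPM in SZCs and 210 and 137 CPM in DZCs, a log2FC of 0.11 (SE 0.39). The DZC values lay on both sides of the SZC values. *PLAGL1*, a zinc finger transcription factor, was at 193 and 254 CPM in SZCs and 242 and 211 CPM in DZCs, a log2FC of -0.02 (SE 0.37).

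*NDN*, which encodes necdin, a MAGE family protein that restrains growth, was at 25.5 and 21.6 CPM in SZCs and 30.9 and 16.7 CPM in DZCs. Its log2FC was -0.01 (SE 0.44), and again the DZC pair spanned the SZC pair. *CDKN1C*, the cyclin-dependent kinase inhibitor known as p57, which takes part in the exit of chondrocytes from the cell cycle, was at 29.0 and 34.6 CPM in SZCs. In DZC replicate 1 it was at 50.9 CPM and in DZC replicate 2 at 26.0 CPM, so the highest and the lowest values were both from DZCs. Its log2FC was -0.27 (SE 0.44, edgeR FDR 1). The library with the higher *CDKN1C* was the one in which the genes of dividing cells were low, and the part of dividing cells in this was not tested. Scaling libraries by their totals alone moved the median log2FC of all genes by 0.30, and with that shift the values were 0.12 for *CDKN1C*, 0.37 for *NDN* and 0.30 for *PLAGL1*, while *SGCE* and *GRB10* stayed above 0 at 0.48 and 0.45. The SEs of the 5 genes ran from 0.33 to 0.44 on the log2 scale, and *CD81*, with an SE of 0.42, did not pass at a log2FC of 1.08.

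The genes that were higher in SZCs did not share a single order of libraries. The log2 ratio of *DLK1* to *PEG3* counts was 2.65 and 2.49 in SZCs and 2.98 in DZC replicate 1, but -1.20 in DZC replicate 2. The log2 ratio of *DLK1* to *MEST* was -0.24 and -0.44 in SZCs, -0.65 in DZC replicate 1 and -2.37 in DZC replicate 2. Such ratios within a library do not depend on scaling between libraries, though they do depend on the lengths of both transcripts. *DLK1* in DZC replicate 2 was therefore low also beside *PEG3* and *MEST*. The log2 ratio of *PEG3* to *NNAT* was 3.66 and 3.64 in SZCs and 3.77 and 2.63 in DZCs.

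Of all tested genes, the 5 whose log2(CPM + 1) values over the 4 libraries, centred on their mean, lay nearest to those of *PEG3* were *DCN*, *SLCO3A1*, *ROBO1*, *HOXD3* and *SPON1*. Their distances from it were 0.0856, 0.214, 0.235, 0.241 and 0.247 on that scale, over only 4 libraries. *DCN*, which encodes the matrix proteoglycan decorin, was at 1029 and 672 CPM in SZCs and 114 and 270 CPM in DZCs. The log2FCs of the 5 restate their choice, since the same libraries gave both, and are given as a description. They were 2.15 for *DCN*, 2.43 for *SLCO3A1*, a transporter of organic anions, 2.01 for *ROBO1*, a receptor of slit proteins, 2.65 for *HOXD3*, a homeobox factor, and 1.94 for *SPON1*, a protein of the matrix. The nearest other member to *PEG3* was *NNAT*, at a distance of 1.15, then *MEST* at 1.74, and *DLK1* lay at 3.20. *NNAT* lay between 0.373 and 4.0 CPM, where adding 1 shrinks differences between libraries, so its distance depends on that addition.

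**Figure D3:**
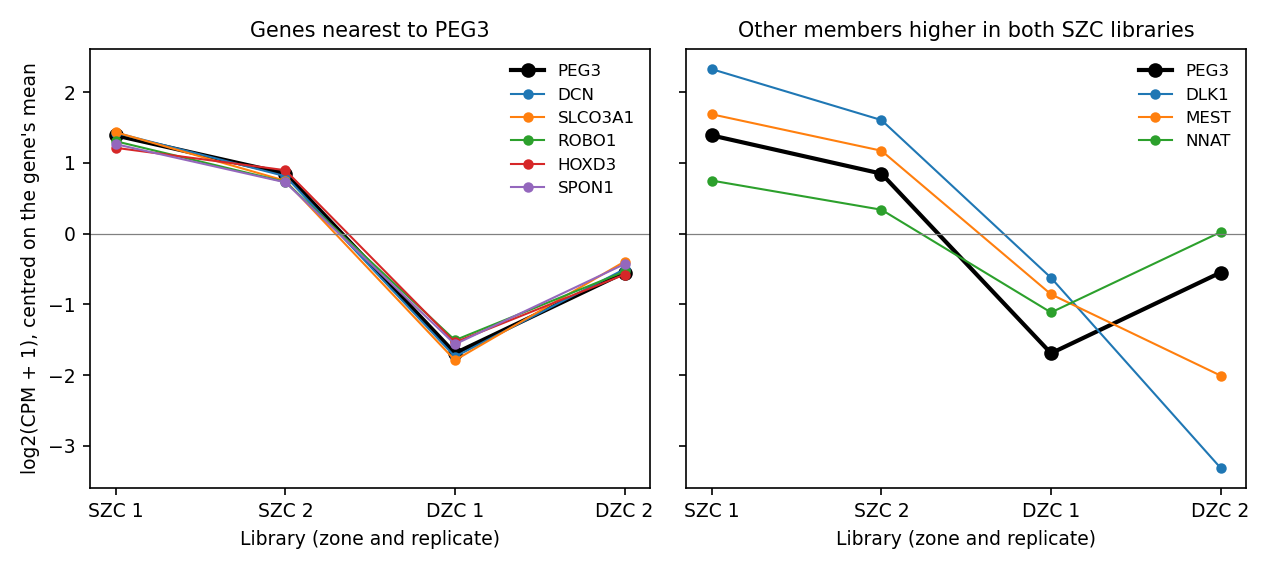
log2(CPM + 1) of each gene centred on its mean over the 4 libraries, for *PEG3* with the 5 tested genes nearest to it (left) and with *DLK1*, *MEST* and *NNAT* (right); lines only join the values of a gene. Genes on the left have their lowest value in DZC replicate 1, as *PEG3* and *NNAT* do, and *DLK1* and *MEST* have theirs in DZC replicate 2.

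Imprinted genes are controlled in clusters, so the other genes of the same clusters were examined from a list of 48, of which 35 had a row under their name and 23 were tested. The other 13 may lie among the rows without a name. Of the 23, 1 passed the threshold as higher in SZCs and 0 as higher in DZCs, with 5 at an unadjusted p-value below 0.05 by edgeR's exact test. These counts stand beside 2.93% called and 9.09% below 0.05 among all tested genes, and the shares apply to each list that follows. DESeq2 also called 1, and the quasi-likelihood test called 0. Their median log2FC was 0.15, against -0.04 for all tested genes. The gene that passed was *PDK4*, a kinase that inhibits pyruvate dehydrogenase and lies near *SGCE* and *PEG10*. With 222 and 162 counts in SZCs and 7 and 18 in DZCs, its log2FC was 3.74 (SE 0.65, edgeR FDR 1.17e-05). Without SZC replicate 1 its FDR was 0.187. *PDK4* is listed for its position and is not itself an established imprinted gene.

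In the same cluster, *SGCE* itself did not pass, nor did *PPP1R9A*, at 7.27 and 6.03 CPM in SZCs and 1.74 and 3.23 CPM in DZCs (log2FC 1.41, edgeR FDR 0.317). *CASD1*, *TFPI2*, *PON2* and *PON3* had log2FCs between -0.17 and 1.39. *BEGAIN*, which precedes *DLK1* on the chromosome, was at 6.86 and 3.53 CPM in SZCs and 1.80 and 1.66 CPM in DZCs. The SZC values lay above the DZC values, as for 21% of all tested genes (41.5% did not overlap in either direction), and its log2FC of 1.58 did not pass (edgeR FDR 0.28). On the other side of *DLK1*, *RTL1* was counted 3, 5, 0 and 3 times and *DIO3*, an enzyme that inactivates thyroid hormone, 8, 3, 0 and 1 times, in the order SZC replicates 1 and 2 and DZC replicates 1 and 2. *ZIM2*, next to *PEG3* in the imprinted cluster of other mammals, was counted 0 times in all 4 libraries, which allows up to 0.187 CPM at 3 counts in the library with the highest such limit.

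Around *NDN*, *MAGEL2* had a log2FC of 0.33, *ATP10A* one of 0.27, *UBE3A* one of -0.07 and *SNRPN* one of -0.47, and none of the 4 passed. Near *CDKN1C*, 7 genes were tested and none passed by edgeR's exact test. *CD81*, a tetraspanin of the cell surface, was at 159 and 93.4 CPM in SZCs and 68.4 and 51.3 CPM in DZCs (FDR 0.216). *IGF2*, the fetal growth factor, was at 4602 and 3137 CPM in SZCs and 2258 and 964 CPM in DZCs (FDR 0.351). Both had SZC values above the DZC values, as had 21% of all tested genes. With libraries scaled by their totals alone, *CD81* and *IGF2* passed beside *PDK4*. *PHLDA2*, a growth restraining gene of that cluster, had 13 and 8 counts in SZCs and 0 and 2 in DZCs and was below the filter.

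**Figure D4:**
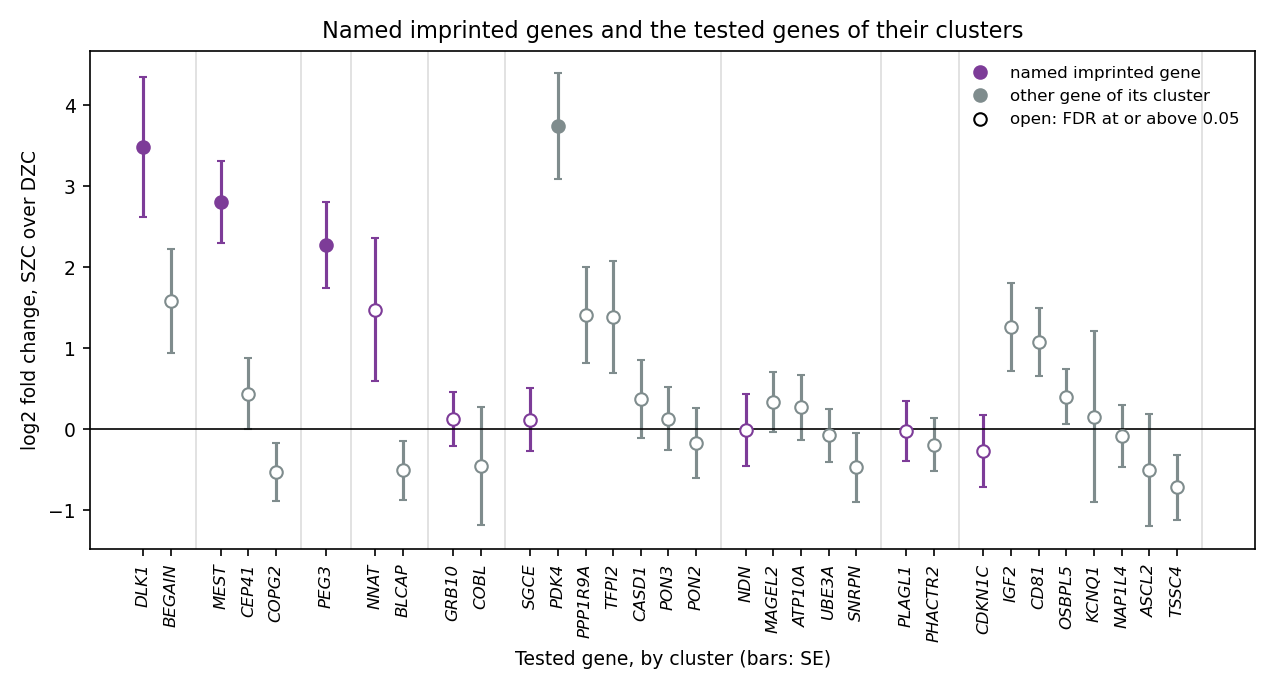
Log2 fold change of SZCs over DZCs (bars are 1 standard error) for each of the 9 genes (purple) followed by the tested genes of its cluster (grey), with filled circles for an FDR below 0.05 by edgeR's exact test. Beside *DLK1*, *MEST* and *PEG3*, *PDK4* is the only filled circle, and no tested gene stands beside *PEG3*.

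From 25 genes of other clusters reported as imprinted in mammals, 13 were tested and 0 passed by edgeR's exact test, with 3 at an unadjusted p-value below 0.05. DESeq2 and the quasi-likelihood test also called 0. *SLC22A3*, a transporter of organic cations, had 57 and 78 counts in SZCs and 14 and 13 in DZCs, a log2FC of 2.04 (edgeR FDR 0.0983). *GPR1* had one of 2.12 (FDR 0.217) and *DHCR7*, an enzyme of cholesterol synthesis, one of -0.90 (FDR 0.462). *IGF2R*, the receptor that clears IGF2, was at 429 and 416 CPM in SZCs and 279 and 368 CPM in DZCs, and *HM13* had a log2FC of 0.43. The row named *GNAS* held between 1 and 7 counts.

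Among 18 tested genes whose products set or keep imprints, 0 passed by edgeR's exact test or DESeq2, with 2 at an unadjusted p-value below 0.05. These were *TET1*, an enzyme that oxidizes methylated DNA, at 21.3 and 21.8 CPM in SZCs and 8.58 and 11.5 CPM in DZCs (FDR 0.151), and *DNMT3A*, a DNA methyltransferase, with a log2FC of 0.89 (FDR 0.388). The median of the list was 0.37. *TRIM28*, which holds silencing complexes at imprints, and *DNMT1*, which copies methylation after replication, had log2FCs of -0.12 and 0.33. *CTCF*, which insulates imprinted domains, had one of 0.15. *DNMT1* in DZC replicate 1, the library with few transcripts of dividing cells, was at 43.2 CPM against 87.4 CPM in DZC replicate 2.

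The relatives and partners of these proteins were also examined. Of 12 tested genes of the dystrophin complex, to which *SGCE* belongs, *LAMA2*, a laminin chain that the complex binds, passed as higher in SZCs. It was at 62.9 and 82.3 CPM in SZCs and 24.7 and 35.2 CPM in DZCs, a log2FC of 1.28 (SE 0.38, edgeR FDR 0.0347). Its FDR was 0.716 without SZC replicate 1, 1 without SZC replicate 2, 0.0985 with libraries scaled by their totals and 0.291 in the quasi-likelihood test of edgeR. *SGCB*, another sarcoglycan, was at 55.6 and 54.6 CPM in SZCs and 13.6 and 28.0 CPM in DZCs, with an FDR of 0.0697 by edgeR's exact test.

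None of the 5 tested CDK inhibitors other than *CDKN1C*, of the 10 relatives and partners of *GRB10*, or of the 12 genes of the Notch pathway and *DLK2* passed by edgeR's exact test or by DESeq2. By edgeR's exact test 0, 2 and 1 of them had an unadjusted p-value below 0.05. *CDKN1A* and *CDKN1B* had log2FCs of -0.39 and 0.24, and *IRS1* and *IGF1R* 0.13 and -0.21. The receptor *NOTCH2* was at 376 and 387 CPM in SZCs, 167 CPM in DZC replicate 1 and 357 CPM in DZC replicate 2, and the ligand *JAG1* at 24.6, 37.5, 4.73 and 20.9 CPM in the same order. The relatives of *PLAGL1* (*PLAG1* and *PLAGL2*), 5 MAGE genes related to *NDN* (among them *MAGED1*, with a log2FC of 0.09, and *MAGED2*, with one of -0.06), 3 genes derived from retrotransposons as *PEG10* is (*RTL5*, *RTL6* and *RTL9*) and the calcium pumps *ATP2A2* and *ATP2A3* also did not pass, with 0 at an unadjusted p-value below 0.05 by edgeR's exact test and 0 called by DESeq2.

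Several of these numbers of calls moved when a DZC library was left out. Without DZC replicate 2, edgeR's exact test called 2725 of 13144 genes (20.7%), among them 6 of 24 genes of the clusters (*BLCAP*, *PDK4*, *PPP1R9A*, *SNRPN*, *TFPI2* and *TSSC4*), 3 of 14 imprinted genes of other clusters, 7 of 18 genes that set or keep imprints (*DNMT1*, *DNMT3A*, *EZH2*, *HELLS*, *TET1*, *TET2* and *UHRF1*), 5 of 12 of the dystrophin complex, 4 of 12 of the Notch list, 2 of 5 CDK inhibitors, and 1 each of the lists of *GRB10* partners and MAGE genes. Those that set or keep imprints were all higher in SZCs, and they did not pass without DZC replicate 1. Those of the Notch list and the CDK inhibitors were also higher in SZCs. Those of the clusters, of other clusters and of the dystrophin complex went both ways, and those of the *GRB10* partners and MAGE genes were higher in DZCs. With DZC replicate 1 left out instead, 891 of 13353 genes (6.67%) were called, among them 3 genes of the clusters (*CD81*, *IGF2* and *PDK4*), 2 of other clusters, 4 of the dystrophin complex, *NEDD4* of the *GRB10* partners and *PLN* of the calcium pump list.

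Markers of other cell types were measured beside these genes. Of 10 tested genes of fibroblasts and synovial lining, 0 passed by edgeR's exact test or DESeq2, 4 had an unadjusted p-value below 0.05 in either test and 8 had positive log2FCs, and the summed level of the list's 11 genes was 17028 and 25267 CPM in SZCs and 4428 and 14129 CPM in DZCs. *COL3A1* was at 8200 and 7692 CPM in SZCs and 1540 and 4306 CPM in DZCs, and *COL1A1* at 3956 and 9205 CPM against 1080 and 5721 CPM. Of the 4, *COL1A2*, *COL3A1* and *PDGFRB* had positive log2FCs, and *PDPN*, a glycoprotein of synovial lining, had one of -0.98, at 492 and 453 CPM in SZCs and 1103 and 762 CPM in DZCs. Of the endothelial markers 3 of 4 tested had positive log2FCs and of the immune markers 4 of 4, as had 46.6% of all tested genes. None of these 8 passed by edgeR's exact test or DESeq2, and 1 of each list had an unadjusted p-value below 0.05. Without DZC replicate 2, edgeR's exact test called 9 of the 10 fibroblast genes, 8 of them higher in SZCs, 13 of the 14 genes of dividing cells, all higher in SZCs, and *KDR*, *CD14* and *CSF1R*. Without DZC replicate 1 it called none of the fibroblast, endothelial or immune genes, and of the dividing cells' genes *RRM2*, as higher in DZCs. The endothelial sum was 5.68 and 12.5 CPM in SZCs and 3.92 and 8.16 CPM in DZCs, and the immune sum 17.9 and 29.6 CPM against 6.97 and 13.2 CPM. Those with the highest levels were *VWF* (log2FC -0.52) and *KDR* (log2FC 2.88, with 0 counts in DZC replicate 1, so the value depends on the prior count) of the endothelial list and *CD14* (1.41) and *CD68* (0.84) of the immune list. *CDH5*, *ESAM* and *PTPRC* were also counted 0 times in DZC replicate 1. Of 8 genes of muscle and fat cells with a row, 4 were tested and *FABP4*, a fatty acid carrier, passed, at 12.2 and 9.44 CPM in SZCs and 1.18 and 1.57 CPM in DZCs (edgeR FDR 3.32e-05). *FABP4* did not pass without SZC replicate 1 or without SZC replicate 2, nor in the quasi-likelihood test. The sum of that list was 23.9 and 23.6 CPM in SZCs and 10.5 and 14.1 CPM in DZCs, and *MYOD1* was at 0 in every library. The part of such cells in the higher *PEG3*, *DLK1* and *MEST* of SZCs was not tested.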

How the data were processed

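RNA-Seq libraries of SZCs and DZCs, 2 of each, were made by the authors with a kit for ultra-low input and read as 75 bp single ends. Per the study's methods the reads were aligned with STAR 2.5.2b to Ensembl build UMD 3.1 and counted for an unstranded library. The authors deposited counts without normalization for 24596 genes, and also a table of their own log2 fold changes and FDR values, of which only gene names were used here. Of 6119 rows without a name, 8 were named from that table and 1 (*PEG3*) from the study's list of regulators that differed between the zones. Groups, replicate numbers and columns follow the labels. ATAC-Seq was not analysed here.

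The deposited counts were tested here with edgeR 4.0.16 (R 4.3.3), using TMM factors (0.735 to 1.14), the default filter, default dispersions and the exact test named in the study's methods, with adjustment over 12857 genes. Standard errors follow from the gene-wise dispersion, and p-values measure the spread between 2 libraries per zone. Same-zone libraries were distinct (chi-square per degree of freedom 65.6 for SZCs and 313 for DZCs). Alternatives were the quasi-likelihood test with and without the replicate number, DESeq2 1.42.0, no filter, more than 1 CPM in 2 libraries, DESeq2 size factors, library totals, and leaving out each library. The scripts were tested on simulated data. The members and lists were chosen with earlier results of these data known. Genes named are the members, of each other list the genes that passed or otherwise the 2 with the highest mean CPM, the 5 genes nearest to *PEG3*, and others named after their values were seen, such as cluster genes. Gene names, overlaps and neighbours were read from RefSeq (ARS-UCD2.0). Its coordinates were used only for overlap and order of genes, which may differ in the build on which the counts rest. Sequences of the genes were not used here.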

Additional observations from a re-analysis of the deposited data

How the results depend on the processing

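Over the 7 alternatives with all libraries, 3 of the 9 genes were called under each (*DLK1*, *MEST* and *PEG3*), except the quasi-likelihood test of edgeR, which called 0 of them, 0 genes of their clusters and 0 of other clusters. It gave *PEG3* a log2 fold change of 2.27 with an FDR of 0.257. With libraries scaled by their totals 3 genes of the clusters were called, against 1, and the log2 fold changes of *PLAGL1*, *NDN* and *CDKN1C* were 0.30, 0.37 and 0.12, above 0 after a shift of 0.30 in the median of all genes. The share of all calls that were higher in SZCs was then 86.7%, against 76.1%, with 288 calls higher in SZCs against 287 and 44 higher in DZCs against 90. Leaving out single libraries, with the lone library of a zone assumed to vary like the remaining pair, gave between 1 and 4 members called (only *MEST* without SZC replicate 1, and *NNAT* also without DZC replicate 2). It gave between 0 and 6 called genes of the clusters and between 0 and 3 of other clusters, where 58 to 2725 of all genes were called. The log2 fold change then ranged from 1.77 to 3.07 for *PEG3*, from -0.23 to 0.16 for *PLAGL1*, from -0.38 to 0.50 for *NDN*, from -0.15 to 0.46 for *SGCE* and from -0.66 to 0.29 for *CDKN1C*. The cause of these changes was not tested. The labels do not say that same-numbered libraries belong together. Their deviations from the zone means had a correlation of 0.42 over 12857 genes and 2 pairs, and with the replicate block the quasi-likelihood test called 347 genes, against 0 without it, among them *DLK1* (FDR 0.00793), *MEST* (0.00566) and *PEG3* (0.0279, log2 fold change 2.36), while *NDN* had a log2 fold change of 0.048. Depth limits *NNAT*, *PDK4*, *RTL1*, *DIO3* and *PHLDA2*, which had fewer than 10 counts in DZC replicate 1.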
